A study of Mus musculus with 6 samples.

Results

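Interferon-stimulated genes are the genes that cells switch on when they sense interferon. In the heart RNAseq of KOb/c and WT mice, 42 such genes were chosen by symbol, and all 42 were found among the 16018 genes of the deposited table. The KOb/c mice carry a congenital deletion, in all tissues, of the NBCe1-B and NBCe1-C variants of the electrogenic sodium bicarbonate cotransporter encoded by *Slc4a4*, and keep the kidney variant NBCe1-A. Hearts came from female mice on the C57BL/6J background, 3 KOb/c and 3 WT, at 4 to 5 weeks of age, and each library was made from 1 animal. Heterozygous parents were crossed to produce both groups, no treatment is stated for either, and only KOb/c mice that had lived to this age, despite an increased early mortality, could be studied. All values are of whole-heart RNA, in which fewer cells of a type and less RNA per cell cannot be told apart.

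Type I interferons bind the receptor pair IFNAR1 and IFNAR2, and type II interferon binds IFNGR1 and IFNGR2. The receptors activate Janus kinases, which phosphorylate transcription factors. STAT2 and IRF9 take part in a complex that binds the interferon-stimulated response element, and the gamma-activated site is the element of the type II response. The genes that are switched on encode sensors of foreign nucleic acid, factors that amplify the response, and effectors that block the entry, translation and replication of viruses. Many of them are transcribed at a low level in healthy tissue, the heart included, through a tonic interferon signal.

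The quantity compared was the normalized count, which is the number of reads on a gene divided by a size factor for the library, and differences are log2 fold changes of KOb/c over WT on log2(normalized count + 1). A level per length is the mean normalized count of the 6 libraries per kb of the longest annotated transcript. The 6 libraries held between 41364857 and 49100802 reads on genes, and single members between 27 and 3784 reads in a library, so all members were counted above 0 in all libraries. The heart label fitted the marker genes: the 8 cardiomyocyte markers summed to between 6.09% and 6.27% of all normalized counts in KOb/c and between 5.43% and 5.62% in WT hearts. Their summed share was higher in each KOb/c heart, but this sum is weighted to *Myh6*, the marker with the highest counts. *Myh6* averaged 1159410 normalized counts in KOb/c and 792350 in WT hearts. Of the 8 markers, 5 were higher and 3 lower in KOb/c, so the sum does not show a larger share of cardiomyocytes. The targeted gene, *Slc4a4*, was listed between 675.1 and 822.2 in WT hearts and at 264 and 268.7 in 2 of the KOb/c hearts, but at 944.8 in the library labelled KOb/c replicate 2. The library labelled KOb/c replicate 2 thus went against its label in the targeted gene, and the counts over the members and the values of the leading members are also given without it.

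The members were first examined for the sequence that the complex with STAT2 and IRF9 recognizes. A promoter window from RefSeq (GRCm38.p6), with 250 bases before and 50 bases after the gene's start, was matched for 31 of the 42 members. Not matched were *Dhx58*, *Zbp1*, *Parp14*, *Parp9*, *Usp18*, *Gbp4*, *Gbp6*, *Gbp9*, *Iigp1*, *Ifi27* and *Rtp4*. The core of the interferon-stimulated response element, GAAANNGAAA on either strand with overlapping matches allowed, was present in the windows of 19 of these 31 members, or 61.3%, and in 3.99% of the 27025 genes with a window. In 15 of the 19 a match lay wholly before the start. The gamma-activated site, TTCNNNGAA, reads the same on both strands and was present in 12 of the 31 members, or 38.7%, against 9.55% of all genes. All 3 matched sensors, all 3 matched guanylate-binding proteins, all 5 matched immunity-related GTPases and both membrane restriction factors held the response element core, whereas *Irf7*, *Irf1*, *Irf9*, *Ifi35*, *Ifi44* and *Xaf1* did not hold these letters in this window. The stretches of 60 bases that hold the core before the start and lie outside annotated exons are printed for 12 members, which show how the element is placed in genes of different roles. They are written in the direction of the gene, with the core in capitals, which reads TTTCNNTTTC where it lies on the opposite strand.

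*Isg15* (chr4:156200856-156200915, reverse strand): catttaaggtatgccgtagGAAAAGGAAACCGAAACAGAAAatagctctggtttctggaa
*Bst2* (chr8:71537565-71537624, reverse strand): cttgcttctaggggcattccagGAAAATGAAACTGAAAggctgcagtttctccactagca
*Oas1a* (chr5:120907526-120907585, reverse strand): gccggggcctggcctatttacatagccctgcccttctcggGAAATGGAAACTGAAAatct
*Ifit1* (chr19:34640769-34640828, forward strand): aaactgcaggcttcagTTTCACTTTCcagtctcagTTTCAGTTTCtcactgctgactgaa
*Ifit3* (chr19:34583365-34583424, forward strand): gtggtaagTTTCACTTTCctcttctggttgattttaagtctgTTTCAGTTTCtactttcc
*Rsad2* (chr12:26456538-26456597, reverse strand): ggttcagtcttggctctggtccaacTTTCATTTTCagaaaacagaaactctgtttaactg
*Stat2* (chr10:128270251-128270310, forward strand): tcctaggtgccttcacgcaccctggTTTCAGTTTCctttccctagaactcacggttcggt
*Gbp7* (chr3:142530258-142530317, forward strand): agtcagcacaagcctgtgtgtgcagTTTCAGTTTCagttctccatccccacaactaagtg
*Igtp* (chr11:58199496-58199555, forward strand): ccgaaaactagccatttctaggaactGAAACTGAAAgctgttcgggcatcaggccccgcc
*Irgm2* (chr11:58214888-58214947, forward strand): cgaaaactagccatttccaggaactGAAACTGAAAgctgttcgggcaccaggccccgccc
*Tgtp1* (chr11:48992289-48992348, reverse strand): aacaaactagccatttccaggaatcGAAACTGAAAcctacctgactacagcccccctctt
*Tgtp2* (chr11:49064248-49064307, reverse strand): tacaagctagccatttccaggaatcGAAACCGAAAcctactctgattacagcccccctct

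*Isg15* held 3 overlapping copies of the core within 22 bases, *Bst2* and *Oas1a* held 2 overlapping copies, and *Ifit1* and *Ifit3* held 2 separate copies each. In *Oas1a* the core ended 5 bases before the start, and in *Isg15* 57 bases before it. The stretches of *Igtp* and *Irgm2*, and those of *Tgtp1* and *Tgtp2*, are nearly alike. A match to these letters is a description of the sequence and was not tested for binding.

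By limma with Benjamini-Hochberg adjustment, 0 of the 42 members differed between KOb/c and WT hearts at an adjusted p under 0.05, as did 0 of the 16016 genes tested (0%). At an unadjusted p under 0.05, 6 members were lower in KOb/c hearts and 0 were higher. These were *Bst2*, *Isg15*, *Ifi35*, *Ifitm3*, *Irf7* and *Oas1a*, that is 14.3% of the members, where 10.5% of all genes were lower and 13% were higher at this limit. The 3 KOb/c values lay wholly below the 3 WT values in 5 members, or 11.9%, against 14.6% of all genes, and wholly above in 0 members, against 15.6% of all genes. The share separated downwards was near that of the table as a whole, and the share separated in either direction, 11.9%, was below the 30.2% of all genes. When libraries were rescaled to the same total, 7 members were lower and 0 higher at an unadjusted p under 0.05, against 15.9% and 7.86% of all genes. In direction, 33 of the 42 members were lower in KOb/c hearts, against 50.8% of all genes, and the median log2 fold change was -0.14, against -0.0043 over all genes. The counting model of DESeq2 on the recovered reads called 5 of the 41 members for which it gave an adjusted p, all of them lower and with adjusted p-values of 0.000352 for *Bst2*, 0.00485 for *Isg15*, 0.0106 for *Ifi35*, 0.0164 for *Ifitm3* and 0.0375 for *Irf7*. This was 12.2% of the members, where DESeq2 called 5.03% of genes lower and 8.22% higher. In all, DESeq2 called 1587 genes where limma called 0, so the count of called genes depended on the test. The paper reports significantly differentially expressed genes between WT and KOb/c hearts. With edgeR, whose quasi-likelihood test was run on the recovered reads, 0 of 42 members were called. At an unadjusted p under 0.05 by edgeR, 6 members were lower and 0 higher, against 10.7% and 13.3% of all genes.

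**Figure D1:**
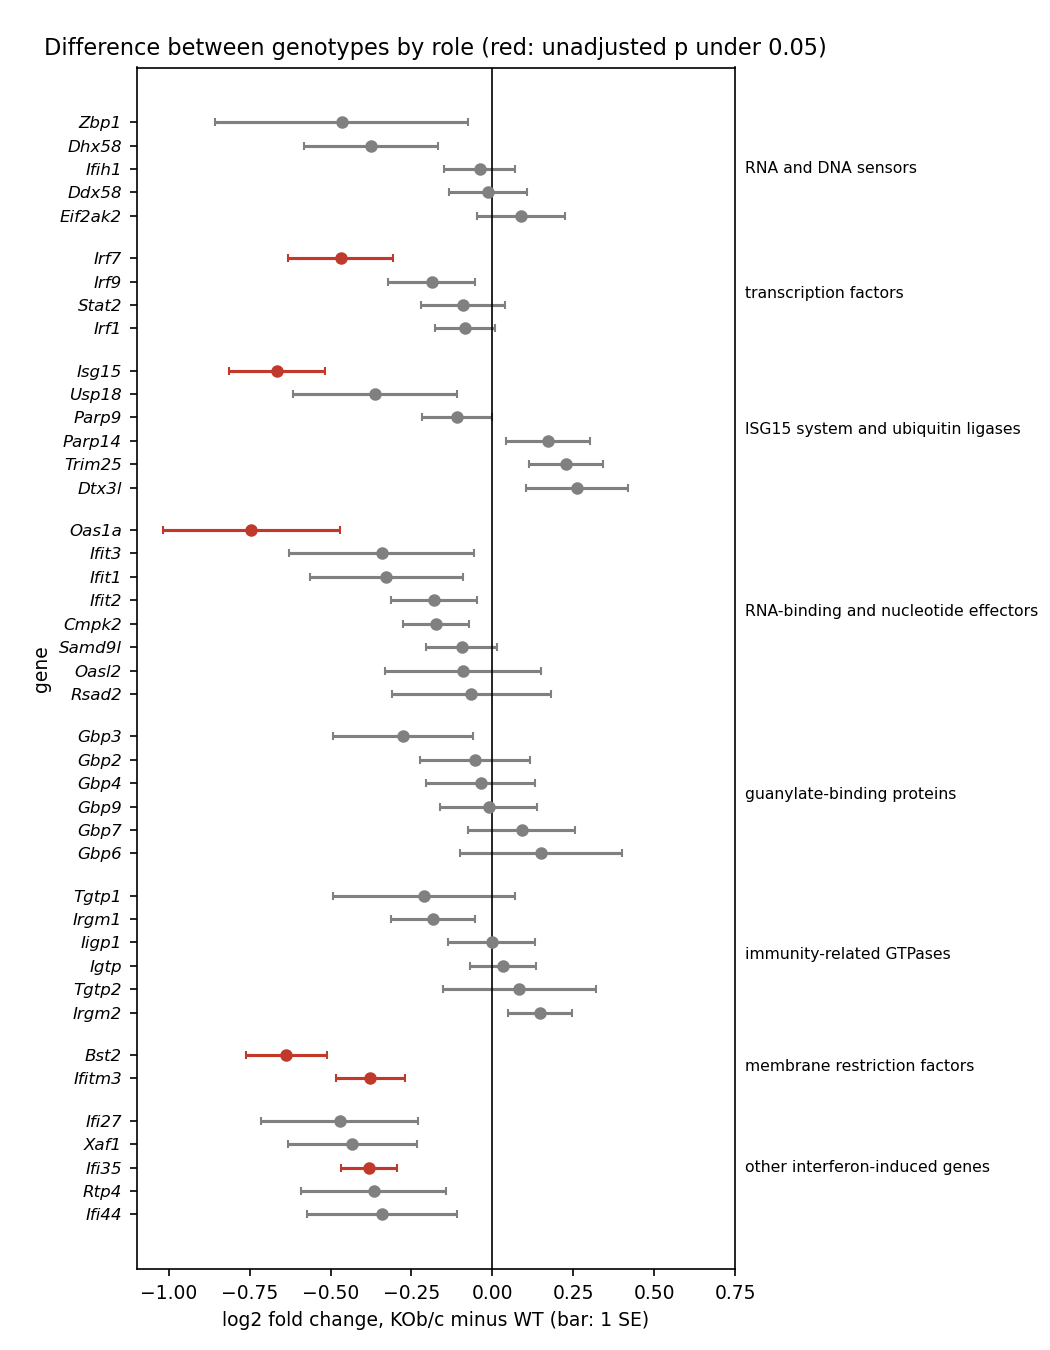
The log2 fold change of KOb/c over WT (horizontal axis, log2 units, bars of 1 standard error from limma, 3 mice per group) is drawn for the 42 members, grouped by role, with the 6 at an unadjusted p under 0.05 in red. Those 6 lie between -0.75 and -0.38, and the highest member, *Dtx3l*, lies at 0.26 with a standard error of 0.16.

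How far the members leaned to lower values depended on single hearts. WT replicate 3 was above the 6-library mean in all 42 members and was the highest library for 35 of them, or 83.3%, where it was the highest for 14.2% of all genes. KOb/c replicate 1 was the lowest library for 22 members and WT replicate 1 for 16, so that these 2 libraries were lowest for 38 of 42, against 47% of all genes. The median deviation of the members from their own 6-library means was, in order of replicate number, -0.26, 0.11 and -0.087 for the KOb/c hearts and -0.17, 0.054 and 0.29 for the WT hearts. WT replicate 1 thus lay below 2 of the KOb/c hearts, and the medians of the groups overlapped.

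Without WT replicate 3, 23 of 42 members were lower in KOb/c hearts, against 50.6% of all genes, and the median log2 fold change was -0.028. At an unadjusted p under 0.05, 4 members were then lower and 3, *Eif2ak2*, *Parp14* and *Irgm2*, were higher, where 9.51% of all genes were lower and 10.9% higher. Without KOb/c replicate 1, 25 members were lower, against 49.1% of all genes, and the median was -0.084. Without KOb/c replicate 3, 33 members were lower, against 51.4% of all genes, and the median was -0.12. At an unadjusted p under 0.05, 7 members were then lower and 2, *Dtx3l* and *Trim25*, higher, against 9.97% and 12.5% of all genes. Without WT replicate 1, 38 members were lower, against 51.3% of all genes, and the median was -0.27. At an unadjusted p under 0.05, 10 members were then lower and 0 higher, against 6.46% and 8.87% of all genes. Without the library labelled KOb/c replicate 2, which had the highest *Slc4a4* count, 35 members were lower, against 50.8% of all genes, and the median was -0.26. At an unadjusted p under 0.05, 10 members were then lower and 0 higher, against 8.92% and 11.9% of all genes. With each of the 6 libraries left out in turn, *Bst2*, *Isg15*, *Ifi35* and *Ifitm3* were the 4 members that were lower at an unadjusted p under 0.05 each time, and 0 members passed the adjusted threshold.

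The leading members were also read without the library labelled KOb/c replicate 2. By limma, the log2 fold changes were then -0.73 for *Bst2* (SE 0.13), -0.71 for *Isg15* (SE 0.17), -0.41 for *Ifi35* (SE 0.10), -0.48 for *Ifitm3* (SE 0.10), -0.63 for *Irf7* (SE 0.14) and -0.99 for *Oas1a* (SE 0.26). The remaining 2 KOb/c values lay wholly below the 3 WT values in 13 members, or 31.0%, against 19.4% of all genes, and wholly above in 0 members, against 20.7% of all genes. Beside the 5 members separated with all libraries, these were *Irf7*, *Dhx58*, *Usp18*, *Cmpk2*, *Ifit2*, *Irgm1*, *Ifi44* and *Xaf1*. DESeq2 on the reads of the 5 libraries called *Bst2*, *Isg15*, *Ifi35*, *Ifitm3* and *Irf7* again, all lower, of the 39 members for which it gave an adjusted p. Their adjusted p-values ran from 0.000266 for *Bst2* to 0.0219 for *Ifi35*, and the share of 12.8% stood against 3.66% of genes called lower and 7.16% called higher by DESeq2.

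**Figure D2:**
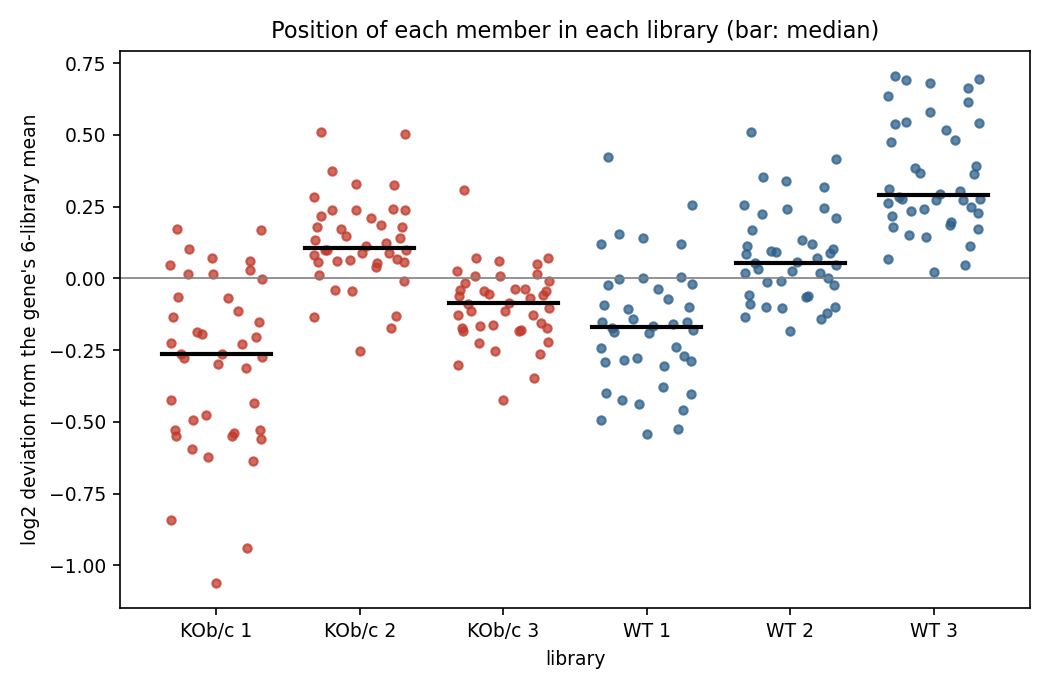
Each point is 1 of the 42 members in 1 library, placed by its log2 deviation from that gene's mean over the 6 libraries (vertical axis, log2 units), with KOb/c hearts in red, WT hearts in blue and a bar at the median. WT replicate 3 stands highest with a median of 0.29 and no member below 0, and KOb/c replicate 1 lowest with a median of -0.26.

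**Figure D3:**
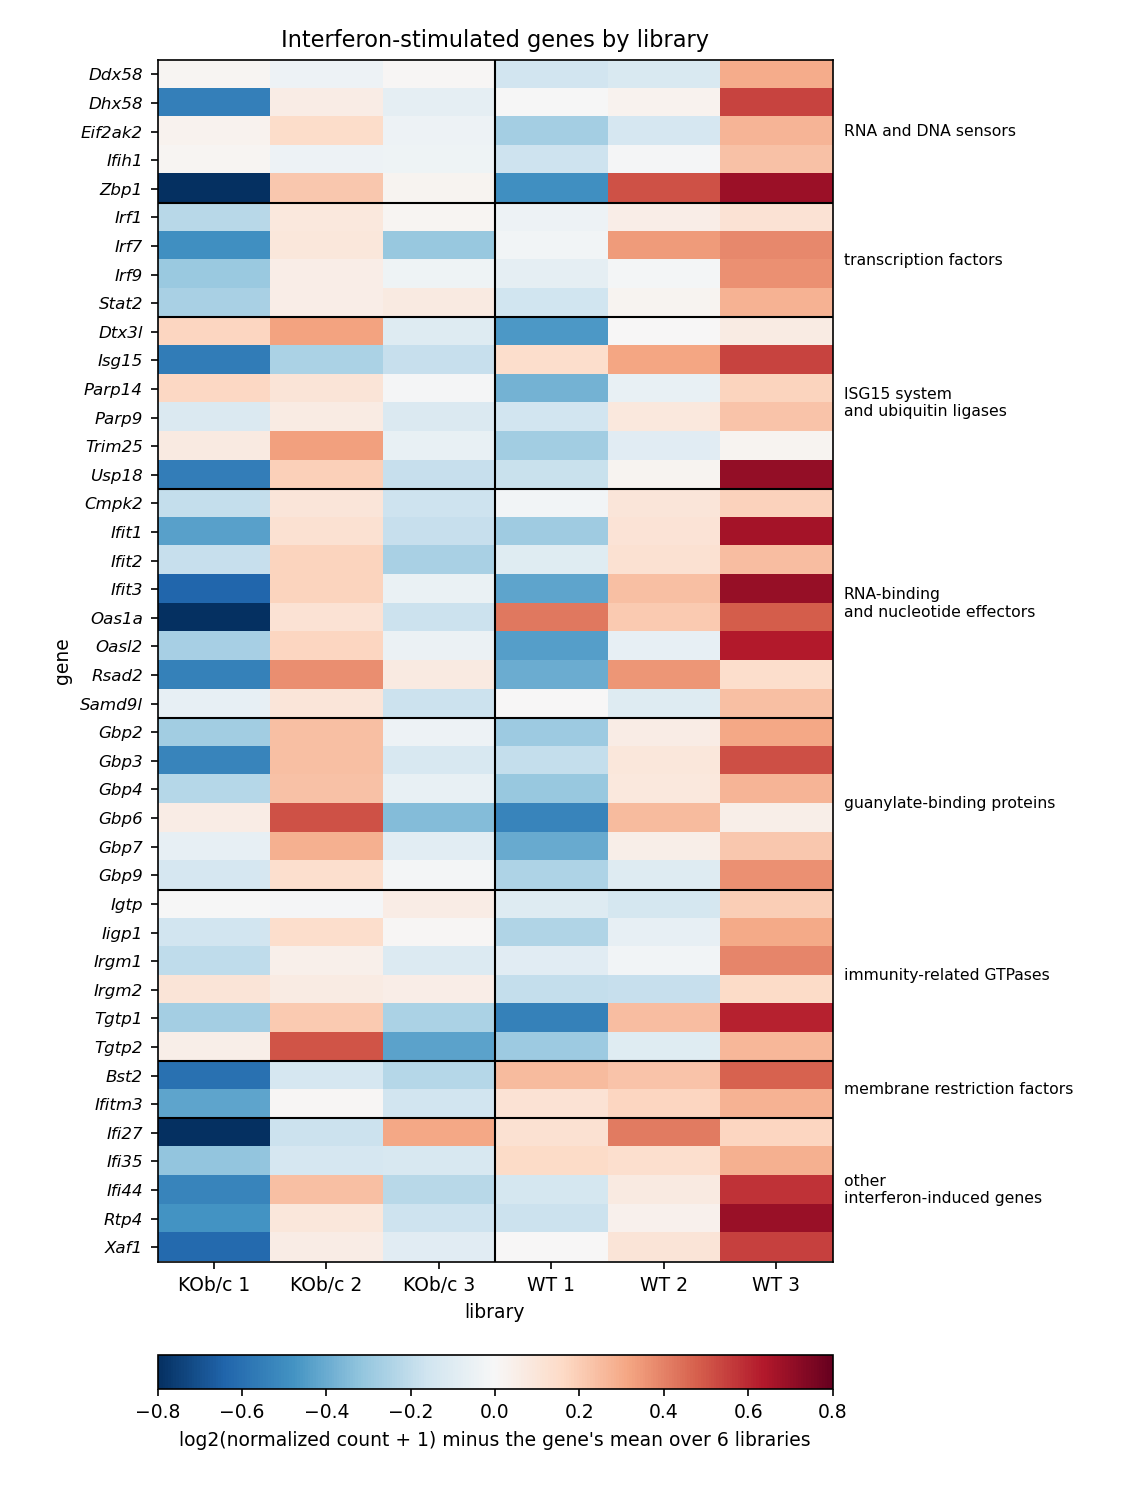
The same deviations (log2 units, colours limited to the range from -0.8 to 0.8) are drawn gene by gene for the 42 members in rows, grouped by role, and the 6 libraries in columns. The column of WT replicate 3 is red throughout. The columns of KOb/c replicates 1 and 3 and of WT replicate 1 are blue for most genes, with 9, 9 and 8 members above their mean. *Bst2*, *Isg15* and *Ifi35* are blue in all 3 KOb/c and red in all 3 WT hearts.

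The members varied among animals of 1 labelled group more than most genes, with the library labelled KOb/c replicate 2 kept in its group. Their median within-group SD was 0.25 on the log2 scale, against 0.14 for all genes, and 72.9% of all genes had an SD below that of the median member. The ratio of the highest to the lowest library ran from 1.26 in *Igtp* and *Irf1* to 3.16 in *Zbp1*, with a median of 1.62, against 1.38 for all genes.

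The membrane restriction factors were the role with the highest levels per length. *Ifitm3*, an interferon-induced membrane protein that blocks the fusion of viruses with endosomes, was highest of all members at 4805 normalized counts per kb. It was counted at 2401, 3242 and 2891 in KOb/c and at 3493, 3617 and 3902 in WT replicates 1, 2 and 3, so that the groups did not overlap. Its log2 fold change was -0.38 (SE 0.11, adjusted p = 0.0975 from limma). *Bst2* (chr8:71534255-71537456 of GRCm38, reverse strand), also called tetherin, holds budding virus particles at the cell surface. Its normalized counts were 767, 1055 and 992 in KOb/c and 1383, 1356 and 1611 in WT hearts. Each KOb/c heart was thus below each WT heart, with a log2 fold change of -0.64 (SE 0.13, adjusted p = 0.0815 from limma) and the lowest unadjusted p of all members, 0.000784.

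Isg15 is a ubiquitin-like protein that is both attached to other proteins and secreted. The gene *Isg15* (chr4:156199424-156200818 of GRCm38, reverse strand) was counted at 173, 214 and 224 in KOb/c and at 282, 318 and 371 in WT hearts, again without overlap. The log2 fold change was -0.67 (SE 0.15, adjusted p = 0.0815 from limma). The other genes of this role did not lean one way. *Usp18*, the protease that removes Isg15 from proteins and also restrains the receptor, had a log2 fold change of -0.36 (SE 0.25), whereas *Trim25*, a ubiquitin ligase of the RIG-I pathway, had one of 0.23 (SE 0.11). *Dtx3l* and *Parp9*, whose products form a complex, stood at 0.26 (SE 0.16) and -0.11 (SE 0.11), and *Parp14*, an ADP-ribosyltransferase, at 0.17 (SE 0.13). *Dtx3l* and *Parp9* overlap on opposite strands in 8.0% and 9.4% of their exonic bases, and since the use of strand in counting is not stated, reads there cannot be assigned with certainty.

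Among the 4 transcription factors, all log2 fold changes were negative. *Irf7*, the factor that amplifies type I interferon production, was counted at 579, 867 and 662 in KOb/c and at 803, 1032 and 1064 in WT hearts. KOb/c replicate 2 lay above WT replicate 1, so the groups overlapped, which they did not without that library, and the log2 fold change was -0.47 (SE 0.16, adjusted p = 0.132 from limma). *Irf1*, which drives many genes of the type II response and had the highest level per length of this role (572 per kb), was counted at 1043, 1290.1 and 1231 in KOb/c and at 1186, 1263 and 1318 in WT hearts. Its groups overlapped and its log2 fold change was -0.08 (SE 0.09). *Irf9* and *Stat2*, which act together in the complex, stood at -0.19 (SE 0.13) and -0.09 (SE 0.13). Corrected for GC content and transcript length, *Irf1* stood at 0.0081 and the others stayed negative.

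Of the 5 sensors, 0 had an unadjusted p under 0.05, and 4 were lower. *Zbp1*, a sensor of Z-form nucleic acid and the member with the lowest level per length (16.9 per kb), was counted at 26.8, 61.0 and 53.2 in KOb/c and at 36.9, 74.8 and 84.6 in WT hearts. The groups overlapped, and its log2 fold change of -0.47 had an SE of 0.39 and was -0.11 without KOb/c replicate 1 and -0.83 without WT replicate 1. *Ddx58*, which encodes the RNA sensor RIG-I and had the highest level of this role (194 per kb), was counted at 754, 724 and 749 in KOb/c and at 671, 686 and 915 in WT hearts. Its log2 fold change was -0.01 (SE 0.12), and WT replicate 3 was above all other libraries. *Ifih1*, which encodes MDA5, stood at -0.04 (SE 0.11), *Dhx58*, which encodes LGP2, at -0.37 (SE 0.21), and *Eif2ak2*, the kinase PKR that halts translation, at 0.09 (SE 0.14).

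All 8 effectors that act on RNA or nucleotides had negative log2 fold changes, from -0.75 to -0.07. This shared direction depended in part on single hearts. Without WT replicate 3, *Oasl2* stood at 0.21 and *Samd9l* at 0.0025, and without KOb/c replicate 1 *Rsad2* stood at 0.19. The others stayed negative with each library left out. *Oas1a*, which makes the 2-5A messenger that switches on RNase L, was counted at 70.5, 160.2 and 131 in KOb/c and at 199, 172 and 207 in WT hearts. The groups did not overlap, but KOb/c replicate 1 lay far below the other hearts. The log2 fold change was -0.75 (SE 0.27, adjusted p = 0.152 from limma), the largest of all members, and -0.40 without KOb/c replicate 1. In *Oas1a*, 32.4% of transcript windows of 150 nt are shared with *Oas1g*, so its count is uncertain. *Ifit3*, of the family that binds viral RNA lacking host marks, was counted at 397, 699.8 and 594 in KOb/c and at 460.0, 731 and 1001 in WT hearts. KOb/c replicate 2 and WT replicate 2 were close, and the log2 fold change was -0.34 (SE 0.29), or -0.080 without WT replicate 3 and -0.64 without WT replicate 1. *Ifit3* shares 18.6% of its windows with *Ifit3b*. The other log2 fold changes were -0.33 for *Ifit1* (SE 0.24), -0.18 for *Ifit2* (SE 0.13), -0.17 for *Cmpk2* (SE 0.10), -0.09 for *Oasl2* (SE 0.24) and *Samd9l* (SE 0.11), and -0.07 for *Rsad2*, which encodes viperin (SE 0.25).

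The guanylate-binding proteins and the immunity-related GTPases, interferon-induced GTPases of the defence against intracellular pathogens, gave medians near 0. Of the 6 guanylate-binding proteins, 4 were lower, with a median of -0.02, and 0 had an unadjusted p under 0.05. *Gbp3* was counted at 553, 941 and 731 in KOb/c and at 699, 849 and 1141 in WT hearts, a log2 fold change of -0.28 (SE 0.22), or -0.083 without KOb/c replicate 1 and -0.47 without the library labelled KOb/c replicate 2. *Gbp2*, at the highest level of the family (333 per kb), was counted at 681, 977 and 803 in KOb/c and at 676, 859.7 and 1026 in WT hearts. Both genes overlapped between the groups, and *Gbp2* stood at -0.05 (SE 0.17). *Gbp4*, *Gbp9*, *Gbp7* and *Gbp6* ran from -0.04 to 0.15, with *Gbp6* sharing 43.4% of its windows with *Gbp10* and *Gm43302*.

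Of the 6 immunity-related GTPases, 3 were lower and 3 higher, of which *Igtp* turned lower when libraries were rescaled to the same total, with a median of 0.02 and 0 at an unadjusted p under 0.05. *Iigp1*, at the highest level of this family (720 per kb), was counted at 2004, 2459 and 2240.2 in KOb/c and at 1889, 2132 and 2755 in WT hearts, with a log2 fold change of -0.00 (SE 0.14). *Tgtp1* was counted at 126, 177 and 128 in KOb/c and at 104, 181 and 234 in WT hearts, a log2 fold change of -0.21 (SE 0.28). Each of these ranges was wider in WT than in KOb/c hearts. *Tgtp1* and *Tgtp2* share 74.1% and 71.7% of their windows with other genes, mainly each other, so that reads cannot be assigned to either with certainty, and *Tgtp2* stood at 0.08 (SE 0.24). *Irgm2*, *Igtp* and *Irgm1* stood at 0.15 (SE 0.10), 0.03 (SE 0.10) and -0.18 (SE 0.13).

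The 5 remaining members, induced by interferon with less settled roles, all had negative log2 fold changes. *Ifi35* (chr11:101448407-101458698 of GRCm38, forward strand), which encodes a partner of Nmi, was counted at 606, 687 and 690.0 in KOb/c and at 839, 827 and 918 in WT hearts. The groups did not overlap and were tight, with an SD of 47.5 in KOb/c and 49.1 in WT hearts, and the log2 fold change was -0.38 (SE 0.09, adjusted p = 0.0815 from limma). Of its exonic bases, 16.8% lie opposite *Gm11626*. *Ifi27*, a mitochondrial protein gene and the highest of this role per length (1252 per kb), was counted at 657, 1045 and 1459 in KOb/c and at 1281, 1571 and 1329 in WT hearts. KOb/c replicate 3 lay above 2 of the WT hearts, and the log2 fold change was -0.47 (SE 0.24). It was -0.17 without KOb/c replicate 1 and -0.74 without KOb/c replicate 3. *Xaf1* and *Rtp4* stood at -0.43 (SE 0.20) and -0.37 (SE 0.22), and *Ifi44* at -0.34 (SE 0.23).

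**Figure D4:**
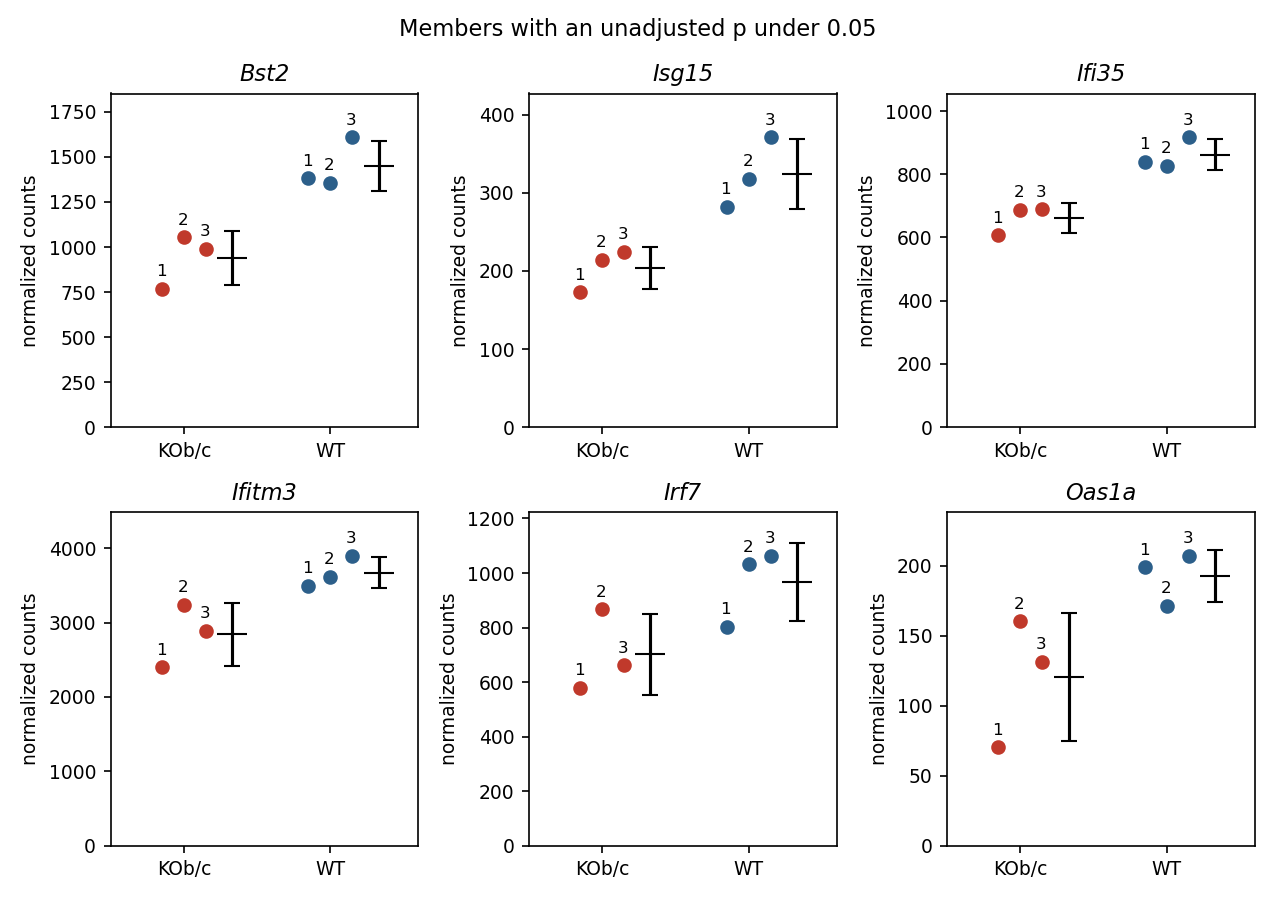
The normalized counts (vertical axis, from 0) of the 6 members with an unadjusted p under 0.05 are shown for each heart, numbered by replicate, with the group mean and SD (n = 3). The KOb/c points lie below the WT points in *Bst2*, *Isg15*, *Ifi35*, *Ifitm3* and *Oas1a* and overlap them in *Irf7*.

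An exact two-sided permutation test of 3 hearts against 3 cannot give a p below 0.1. It gives that value to each gene whose groups do not overlap, and so to *Bst2*, *Isg15*, *Ifi35*, *Ifitm3* and *Oas1a*. The test thus adds nothing to the lack of overlap, which held for 11.9% of the members and 30.2% of all genes. Transcript length moved with the difference between genotypes. Over all genes, the median log2 fold change was -0.18 for genes whose longest transcript was under 1500 nt and 0.02 for the rest. The 5 members under 1500 nt, *Ifitm3*, *Isg15*, *Bst2*, *Ifi27* and *Ifi35*, lay between -0.67 and -0.38, and the 37 longer members had a median of -0.09, with 28 of them lower against 45.8% of all genes of that length. After the effect of length and GC content had been subtracted, log2 fold changes were -0.48 for *Isg15*, -0.44 for *Bst2*, -0.23 for *Ifi35*, -0.19 for *Ifitm3*, -0.64 for *Oas1a* and -0.43 for *Irf7*, and 32 members were lower. At an unadjusted p under 0.05, 5 members, or 11.9%, were then lower, against 6.68% of all genes, and *Ifitm3* was no longer among them. With the same correction and without the library labelled KOb/c replicate 2, 39 members were lower, against 47.1% of all genes, and 11 members, *Ifitm3* included, were lower at an unadjusted p under 0.05, against 5.81% of all genes. Log2 fold changes were then -0.51 for *Isg15*, -0.52 for *Bst2*, -0.25 for *Ifi35*, -0.29 for *Ifitm3*, -0.87 for *Oas1a* and -0.58 for *Irf7*.

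**Figure D5:**
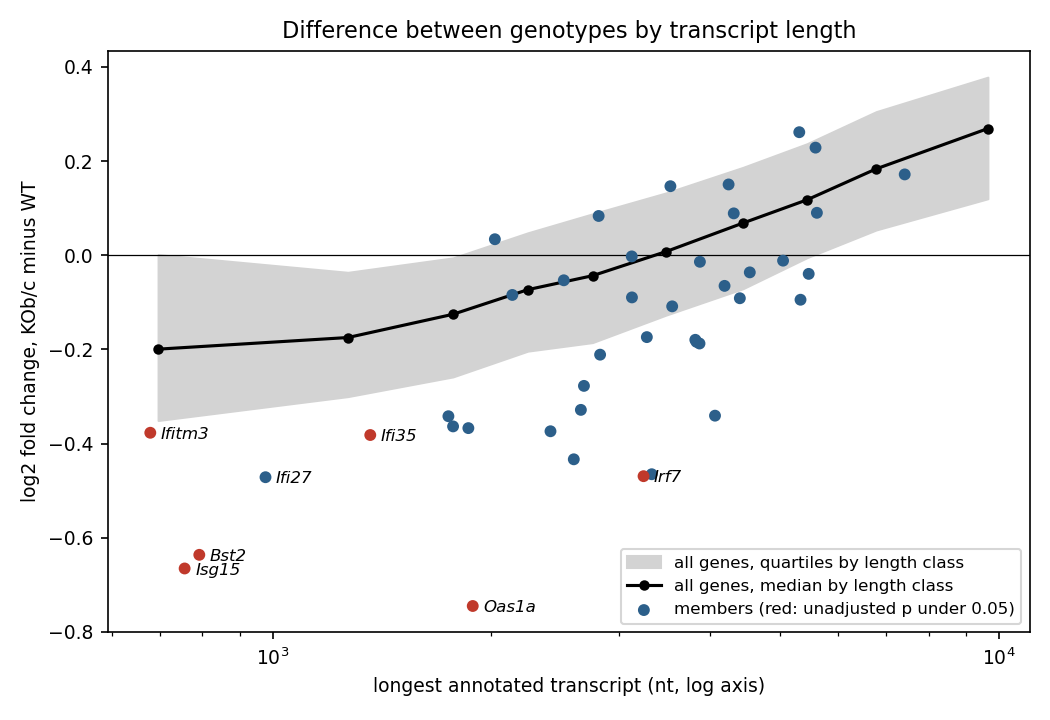
The log2 fold change of KOb/c over WT (vertical axis) is plotted against the length of the longest annotated transcript (horizontal axis, nt, log scale) for the 42 members, with the median and quartiles of all genes in 10 classes of length. The line of all genes climbs from -0.20 in the shortest to 0.27 in the longest class, and *Bst2*, *Isg15*, *Oas1a* and *Irf7* lie well below the quartile band. Members without an unadjusted p under 0.05 also lie below it, among them *Zbp1* at -0.47, *Xaf1* at -0.43 and *Ifi44* at -0.34.

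The same question was asked of 88 further genes of the pathway, of which 76 were among the genes analysed here. None of the 9 interferon genes listed was among them. By limma 0 of the 76 passed the adjusted threshold; at an unadjusted p under 0.05, 8 of 76 (10.5%) were lower and 4 (5.26%) higher, against 10.5% and 13% of all genes. The median log2 fold change was -0.13, and 55 of 76 were lower, against 50.8% of all genes. The groups did not overlap in 10 of the 76 that were lower and in 4 that were higher, against 14.6% and 15.6% of all genes. The genes named below as separated thus came from a list with no more separation than the whole. Of the 6 receptor genes, *Ifngr2*, a chain of the type II receptor, was counted at 9665, 9849.6 and 9647 in KOb/c and at 11244, 10564 and 10597 in WT hearts. The groups did not overlap, with a log2 fold change of -0.15 (SE 0.06, adjusted p = 0.165 from limma). *Tyk2*, the Janus kinase at the type I receptor, stood at -0.11 (SE 0.07), also without overlap.

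Among the 5 inhibitors of the pathway, *Pias1*, an inhibitor of the signalling, was counted at 1255, 1013 and 1089 in KOb/c and at 845, 862 and 908 in WT hearts, and stood at 0.35 (SE 0.09, adjusted p = 0.0885 from limma). *Ptpn2*, a phosphatase of Janus kinases, stood at -0.25 (SE 0.10). Both genes were separated between the groups, in opposite directions. Among the 15 genes that lead to interferon production, *Irf3*, which starts it, was counted at 842, 998 and 1039 in KOb/c and at 1304, 1090.4 and 1260.1 in WT hearts, a log2 fold change of -0.35 (SE 0.10, adjusted p = 0.108 from limma). *Irf5* stood at -0.25 (SE 0.11) and *Irf2*, which represses interferon-stimulated genes, at 0.26 (SE 0.08), again with no overlap.

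Of 49 further interferon-stimulated genes, 46 were among the genes analysed here, and 37 of these were lower, with a median of -0.18. WT replicate 3 was the highest library for 30 of the 46. The largest difference was in *Cxcl10*, a chemokine that draws T cells, at 9.92, 22.7 and 33.7 in KOb/c and 47.1, 38.5 and 48.5 in WT hearts, a log2 fold change of -1.13 (SE 0.41, adjusted p = 0.148 from limma). KOb/c replicate 1, with 10 reads of *Cxcl10*, lay far below the other hearts, and the log2 fold change was -0.66 without it. *Cxcl9*, its relative, stood at -0.39 (SE 0.15), *Phf11d* at -0.53 (SE 0.21), or -0.33 without WT replicate 3, and *Phf11b* at -0.48 (SE 0.24), or -0.24 without KOb/c replicate 1. *Ifitm2*, a neighbour of *Ifitm3* in its family, was counted at 1652, 1684 and 1812 in KOb/c and at 2332, 2052 and 2154 in WT hearts, a log2 fold change of -0.34 (SE 0.07, adjusted p = 0.0815 from limma), and *Ifitm1* stood at -0.51 (SE 0.17). Both are short transcripts, and after the correction for length and GC content they stood at -0.15 and -0.34. *Slfn5* and *Znfx1*, with long transcripts, were higher without overlap, at 0.28 (SE 0.09) and 0.30 (SE 0.08), and at 0.15 and 0.13 after that correction. The Mx proteins are GTPases that trap viral nucleoproteins. *Mx1* was counted at 19.8, 30.0 and 39.9 in KOb/c and at 27.7, 35.3 and 72.2 in WT hearts, and *Mx2* at 72.4, 108 and 104 in KOb/c and at 74.8, 108 and 164 in WT hearts. WT replicate 3 was highest in both, and their log2 fold changes were -0.51 (SE 0.40) and -0.24 (SE 0.29), or -0.12 and 0.050 without WT replicate 3.

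Markers of the cells that carry or respond to interferon were set beside the members. The 10 macrophage markers summed to between 10348 and 11451 normalized counts in KOb/c and between 11403 and 12154 in WT hearts. Of them 5 were lower and 5 higher, with a median log2 fold change of -0.068. At an unadjusted p under 0.05, 3 were lower and 0 higher, against 10.5% and 13% of all genes. These were *C1qa*, *C1qb* and *C1qc*, subunits of complement C1q with short transcripts, at -0.35, -0.39 and -0.34, and at -0.16, -0.20 and -0.16 after the correction for length and GC content. *Cd163* stood at 0.35 (SE 0.16), *Mrc1* at 0.15 (SE 0.12) and *Csf1r* at 0.09 (SE 0.07). The median deviation of the macrophage markers was lowest in KOb/c replicate 1 (-0.27) and highest in WT replicate 3 (0.11), as it was for the members. The other hearts differed in order. WT replicate 1 stood at 0.088 for these markers and at -0.17 for the members, and WT replicate 2 at -0.050 and 0.054. KOb/c replicates 2 and 3 stood at 0.044 and 0.0089 for these markers, against 0.11 and -0.087 for the members. The median of the B cell markers was also lowest in KOb/c replicate 1, at -0.50. The 5 B cell markers summed to between 552 and 976 in KOb/c and between 586 and 1452 in WT hearts, and the 6 T and NK cell markers analysed here to between 109 and 129 in KOb/c and between 103 and 194 in WT hearts, each with its highest value in WT replicate 2 and not in WT replicate 3. Of the cardiomyocyte markers, *Myh6*, *Ryr2* and *Ttn* were higher in each KOb/c than in each WT heart, at 0.55 (SE 0.18), 0.61 (SE 0.14) and 0.47 (SE 0.12), and *Myl2* and *Tnni3* were lower without overlap, at -0.18 (SE 0.11) and -0.13 (SE 0.09). The first 3 have long transcripts and stood at 0.42, 0.32 and 0.35 after the correction for length and GC content. *Myl2* and *Tnni3* have short ones and then stood at -0.011 and 0.058. The 8 endothelial markers summed to between 49186 and 52794 in KOb/c and between 46691 and 47800 in WT hearts, and the 6 fibroblast markers to between 52054 and 60701 and between 51070 and 54767. None of the 3 plasmacytoid dendritic cell markers was among the genes analysed here. The part of these cells in the values of the members was not tested.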

How the data were processed

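RNAseq of hearts from 3 KOb/c and 3 WT mice was analysed from 1 deposited table. The authors deposited a signal per gene: normalized read counts, which they had scaled by library size factors but not by gene length. Trimmomatic 0.36, STAR 2.5.2b, featureCounts of Subread 1.5.2, DESeq2 and GRCm38 are named in the submitters' processing notes; annotation and use of strand are not given in the sources used here. Division by the value of 1 read gave whole numbers, within 0.01, for 100% of values in each library, and these recovered reads entered edgeR and DESeq2 only. Symbols, positions and transcript lengths came from GENCODE M21 (GRCm38) and were matched for 15980 of 16018 identifiers. Mb21d1 was read under its current symbol, Cgas.

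Genotypes were compared by limma 3.58.1 (R 4.3.3), two-sided, with a variance trend. Values were log2(normalized count + 1), which understates the change of low genes, and the 16016 genes whose mean reached 10 were tested. P-values were adjusted by Benjamini-Hochberg over these genes (threshold 0.05). They set the difference between genotypes against the spread between the 3 mice of each group. For this, limma drew the variance of each gene towards a trend over all genes, and its standard errors hold that variance. The 42 members, their roles and the other lists were chosen with earlier results of these data known. Values per library are given for members whose groups did not overlap, that had an unadjusted p under 0.05, or that had the largest change or highest level per length of their role. Of other pathway genes, those without overlap or with an unadjusted p under 0.05 are named, with *Mx1* and *Mx2*; a further gene that the rule names is not reported here. The limit of 1500 nt and the printed promoter stretches were chosen after values were seen. Alternatives were pseudocounts of 0.5 and 5, no filter or a minimum mean of 50, equal library totals, quantile normalization, a fit with no trend, the replicate block, a spline correction for length and GC content, leaving out each library, edgeR 4.0.16 and DESeq2 1.42.0. The lowest gene mean in the deposited table was 9.89, and genes below it were not listed. The setting with no filter thus tested 16018 genes in place of 16016 and could hardly differ. The length and GC correction and DESeq2 were also run without the library labelled KOb/c replicate 2, a choice made after seeing the data. The procedure was tested on simulated counts.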

Additional observations from a re-analysis of the deposited data

How the results depend on the processing

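Under 17 alternatives, limma and edgeR called 0 members and 0 other pathway genes at an adjusted p under 0.05, and DESeq2 on the recovered reads called 5 members and 5 other pathway genes (2 lower, *Irf3* and *Ifitm2*, and 3 higher, *Pias1*, *Slfn5* and *Znfx1*). Of all genes with an adjusted p, DESeq2 called 5.03% lower and 8.22% higher. The cause of the difference between the tools was not tested. DESeq2 gave no adjusted p for *Zbp1*. With each library left out in turn, between 5 and 10 members had an unadjusted p under 0.05, between 23 and 38 were lower, and the median log2 fold change of the members lay between -0.27 and -0.028. Under the other alternatives these values were 5 to 9, 32 to 34 and -0.21 to -0.14. Of all genes, 6.46% to 9.97% were lower and 8.64% to 12.5% higher at that unadjusted limit with a library left out. Under the other alternatives these shares were 6.68% to 15.9% and 7.75% to 15.5%. A log2 fold change below 0 was held by 49.1% to 51.4% of all genes with a library left out, and by 47.6% to 62.1% under the other alternatives. Rescaling to the same total moved the median of all genes from -0.0043 to -0.077 and that of the members to -0.21. The log2 fold change of *Slc4a4* lay between -1.51 and -0.59 with a library left out, and was -1.51 (adjusted p = 0.0121 from limma) without the library labelled KOb/c replicate 2.

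The replicate numbers did not pair the hearts: deviations of same-numbered hearts correlated at 0.23, 0.072 and -0.029 across genes, and 1 of the 3 KOb/c hearts correlated best with its own number. With the replicate block, 9 members were lower and 0 higher at an unadjusted p under 0.05, against 10.9% and 13.6% of all genes, 33 had a log2 fold change below 0, and 0 passed the adjusted threshold.

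The direction held under each of the 17 alternatives for 24 of the 42 members. It reversed for *Igtp* (-0.039) after rescaling to the same total and, after the length and GC correction, for *Irf1* (0.0081), *Gbp2* (0.0024), *Iigp1* (0.047), *Parp14* (-0.023) and *Gbp7* (-0.018). With a library left out, log2 fold changes on both sides of 0 were reached by *Ddx58* from -0.094 to 0.13, *Eif2ak2* from -0.024 to 0.25, *Ifih1* from -0.13 to 0.068, *Irf1* from -0.15 to 0.0065, *Stat2* from -0.19 to 0.024, *Oasl2* from -0.33 to 0.21, *Rsad2* from -0.28 to 0.19, *Samd9l* from -0.17 to 0.0025, *Gbp2* from -0.21 to 0.089, *Gbp4* from -0.20 to 0.091, *Gbp6* from -0.075 to 0.36, *Gbp7* from -0.088 to 0.22, *Gbp9* from -0.14 to 0.17, *Igtp* from -0.028 to 0.14, *Iigp1* from -0.12 to 0.15, *Tgtp1* from -0.53 to 0.043, *Tgtp2* from -0.15 to 0.32. Another pair of alternatives, both without the library labelled KOb/c replicate 2, was chosen after seeing the data. After the length and GC correction, 11 members were lower and 0 higher at an unadjusted p under 0.05, against 5.81% and 7.99% of all genes. *Slc4a4* stood at -1.72, and *Eif2ak2* (-0.0037), *Parp14* (-0.036), *Trim25* (-0.012), *Gbp6* (-0.093), *Gbp7* (-0.14) and *Tgtp2* (-0.093) turned lower. DESeq2 called 5 members and 4 other pathway genes (*Pias1*, *Ifitm2*, *Ly6e* and *Phf11d*), with 13 members at an unadjusted p under 0.05, *Slc4a4* at -1.52, and *Gbp6* (-0.091), *Gbp7* (-0.053) and *Tgtp2* (-0.15) lower. Of all genes with an adjusted p, it called 3.66% lower and 7.16% higher. At an unadjusted p under 0.05, 8.30% of all genes were lower and 11.6% higher by DESeq2, and the 13 members were all lower. Counting error was largest for *Zbp1*, with 27 reads in its lowest library.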
